A study of Arabidopsis lyrata and Arabidopsis thaliana with 9 samples.

Results

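A set of 48 Arabidopsis thaliana genes had much less RNA in 1 of 3 inflorescence libraries than in the other two. The genes were chosen by that difference: CPM (a model's count scaled to the library's total count) averaged 10 or more over the 3 libraries, and CPM in library 3 was at most 0.5 times CPM in library 1 and at most 0.5 times CPM in library 2. Of 27176 gene models listed, 13159 averaged 10 CPM or more, and 48 of these met the rule, which is 0.365%. Since the rule used these values, the low level in library 3 is described here and not tested, and the members are not a sample from which a rate can be drawn.

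All 3 libraries, here numbered 3, 1 and 2 after the replicate numbers of the labels, are biological replicates of a single group. They were made from total RNA of inflorescences of wild-type Col-0 plants after bolting, grown in a standard greenhouse in long days, and sequenced as directional (strand-keeping) RNA-seq. The series holds 9 libraries in all. The 6 others are from leaves and inflorescences of the related A. lyrata and were not analysed here. Whether a library came from 1 plant or from several is not stated. The labels name no treatment, dissection or floral stage that sets library 3 apart from libraries 1 and 2.

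An inflorescence carries flowers of every age, from the meristem to open flowers and young fruits. Genes used at the end of flower development are expressed in the oldest of them. Mature pollen fills late and stores transcripts for the pollen tube, a cell that grows at its tip and needs enzymes that loosen and stiffen pectin in its wall. At flower opening, jasmonate acts through a small set of MYB transcription factors to drive stamen filament and petal growth, and open flowers release volatile terpenes.

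Library 3 held 6330211 counts, against 6263918 in library 1 and 14004158 in library 2, so libraries 3 and 1 were of nearly the same depth. Correlations of log2 (CPM + 1) across models, which are not independent replicates, lay between 0.985 and 0.992 for the 3 pairs of libraries. Of the regulators of young flowers, APETALA1 (AP1) stood at 216 CPM in library 3, against 235 and 224 CPM in libraries 1 and 2, and AGAMOUS (AG) stood at 101 CPM in library 3, against 93.4 and 97.3 CPM in libraries 1 and 2. With the same rule turned on library 1 or on library 2, 0 models were low in either. In the opposite direction, 0 models were at least 2 times as high in library 3 as in both others, 2 were so in library 1 (0.0152%) and 0 in library 2.

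The members' summed level was 347 CPM in library 3, against 1216 CPM in library 1 and 1194 CPM in library 2. This is 0.0347% of the counts of library 3 (exact 95% binomial interval 0.0333 to 0.0362%), 0.122% of library 1 (0.1189 to 0.1244%) and 0.119% of library 2 (0.1176 to 0.1212%). These intervals, and those of ratios below, cover counting error only. The median member stood at 5.77 CPM in library 3, against 22.9 CPM in library 1 and 20.7 CPM in library 2. Relative to the mean of libraries 1 and 2, library 3 held from 1.75% to 45.5% of a member's level, with a median of 29.0%. It held 10% or less for 2 members, 20% or less for 12 and 30% or less for 25. In RNA from whole inflorescences, fewer cells of a type and less RNA per cell cannot be told apart.

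**Figure D1:**
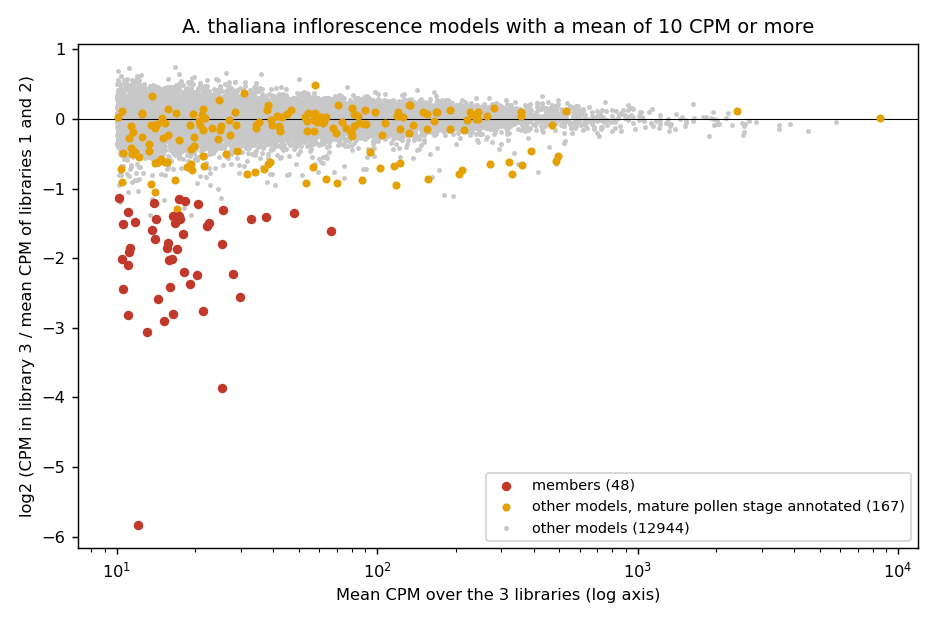
Mean CPM over the 3 libraries (x axis, log) against the log2 ratio of CPM in library 3 to the mean of libraries 1 and 2 (y axis), 1 point per model of 10 CPM or more. The 48 members (red) lie below the bulk of models at mean levels of 10.2 to 66.8 CPM, and 167 other models annotated to the mature pollen stage (yellow) run from -1.29 to 0.50.

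Members were of low to middle abundance. Their mean level ran from 10.2 to 66.8 CPM with a median of 16.5 CPM, against a median of 35.7 CPM over all 13159 models. Counts in library 3 ran from 2 to 178 per member. For 30 of the 48, the exact 95% interval of the ratio to the nearer of libraries 1 and 2 lay wholly under 0.5, and for the other 18 it reached 0.5 or more. Between libraries 1 and 2, 33 members (68.8%) differed by at most 0.25 on the log2 scale, a smaller share than the 86.6% of all models, and the differences ran from -0.78 to 0.59.

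Upstream regions of 4 members are printed here because the genes stand for the parts of the list: GPAT5 had the lowest relative level in library 3, AT3G22910 (ACA13, a calcium pump) the next lowest, VGDH1 the highest CPM of all members, and AT3G19020 the highest CPM of the leucine-rich repeat members. Each is the 250 bases before the annotated transcript start, read 5′ to 3′ on the gene's strand from the RefSeq assembly TAIR10.1. Capitals mark AGAAA and GTGA on either strand (so also TTTCT and TCAC), short motifs known from promoters of pollen genes in tomato and tobacco, and TATAAA on the gene's strand. The regions are chr3:3595444-3595693 (plus strand) for GPAT5, chr3:8119491-8119740 (minus strand) for AT3G22910, chr2:19326485-19326734 (minus strand) for VGDH1 and chr3:6562378-6562627 (minus strand) for AT3G19020.
GPAT5: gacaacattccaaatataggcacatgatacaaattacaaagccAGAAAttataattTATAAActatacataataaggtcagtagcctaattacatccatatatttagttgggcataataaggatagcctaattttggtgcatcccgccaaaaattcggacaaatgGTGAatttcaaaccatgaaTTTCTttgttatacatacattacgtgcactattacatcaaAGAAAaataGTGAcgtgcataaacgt
AT3G22910: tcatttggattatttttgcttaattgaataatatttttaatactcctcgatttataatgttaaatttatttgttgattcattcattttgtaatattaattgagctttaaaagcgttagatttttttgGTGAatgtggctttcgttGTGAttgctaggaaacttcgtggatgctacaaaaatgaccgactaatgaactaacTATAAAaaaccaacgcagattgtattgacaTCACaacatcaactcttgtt
VGDH1: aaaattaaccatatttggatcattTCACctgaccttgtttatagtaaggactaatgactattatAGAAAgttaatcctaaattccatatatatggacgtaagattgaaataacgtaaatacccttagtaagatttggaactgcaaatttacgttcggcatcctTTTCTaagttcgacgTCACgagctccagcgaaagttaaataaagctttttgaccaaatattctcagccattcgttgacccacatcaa
AT3G19020: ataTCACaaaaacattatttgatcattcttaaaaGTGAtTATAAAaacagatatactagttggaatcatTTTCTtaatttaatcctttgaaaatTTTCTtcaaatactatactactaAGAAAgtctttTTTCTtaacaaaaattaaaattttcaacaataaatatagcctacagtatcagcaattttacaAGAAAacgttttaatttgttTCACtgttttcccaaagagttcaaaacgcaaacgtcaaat
Both short pollen motifs were about as frequent in other upstream regions as in those of members. AGAAA was in 38 of 48 upstream regions (79.2%), against 81.8% of 13088 other models, and GTGA was in 39 (81.2%), against 77.0%. TATAAA was in 20 (41.7%), against 30.3%. A CArG box, the kind of site bound by MADS-box factors, was in 4 (8.33%: AT1G03050, BGAL13, VGDH1 and SVL4), against 2.87%, and CACGTG, a site of light- and stress-responsive factors, was in 4 (8.33%), against 8.01%. Motifs were counted on both strands except TATAAA, and matches could overlap. These matches are letters in a window, the shares were not tested, and a motif as short as AGAAA or GTGA is found in most windows of this length.

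The stage annotation of the loci was not used by the rule. RefSeq's notes for A. thaliana carry, for many genes, the plant structures and growth stages of expression recorded in earlier studies. They name stages for 28 members and give a bare number of stages for another 9. The mature pollen stage was named for 22 of 48 members (45.8%), against 167 of the 13111 other models of 10 CPM or more (1.27%). Entries name stages mainly for genes recorded in few of them, so the 28 were also set against the 536 other models with named stages. Of the 28 members, 22 named the mature pollen stage (78.6%, against 31.2% of the others), and 28 named anthesis, the opening of the flower (100%, against 49.6%). Members were recorded in a median of 10 plant structures and 5 stages, against 22 structures and 13 stages for the other models. For the other 20 members, among them VGDH1, AGP11 and GPAT5, the notes name no stage, which says nothing of when they are expressed.

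The share of models annotated to mature pollen was smaller at higher ratios. It was 59.1% of the 22 models whose larger ratio to library 1 or 2 was at most 0.3, and 34.6% of the 26 between 0.3 and 0.5. Outside the rule it was 16.0% of 25 models between 0.5 and 0.6, 26.2% of 65 between 0.6 and 0.7, and 7.93% of 227 between 0.7 and 0.8. Where the larger ratio was over 1, it was 0.862% of 8821 models. The order is not strict, since the band of 0.6 to 0.7 held a larger share than the band of 0.5 to 0.6. Read from the annotation's side, 22 of the 189 models of the mature pollen stage were members (11.6%), and the 189 had a median log2 ratio of -0.15 with quartiles of -0.65 and 0.03. Library 3 was the lowest of the libraries for 113 of them and the highest for 44, while over all 13159 models it was the lowest for 4338 and the highest for 5146.

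**Figure D2:**
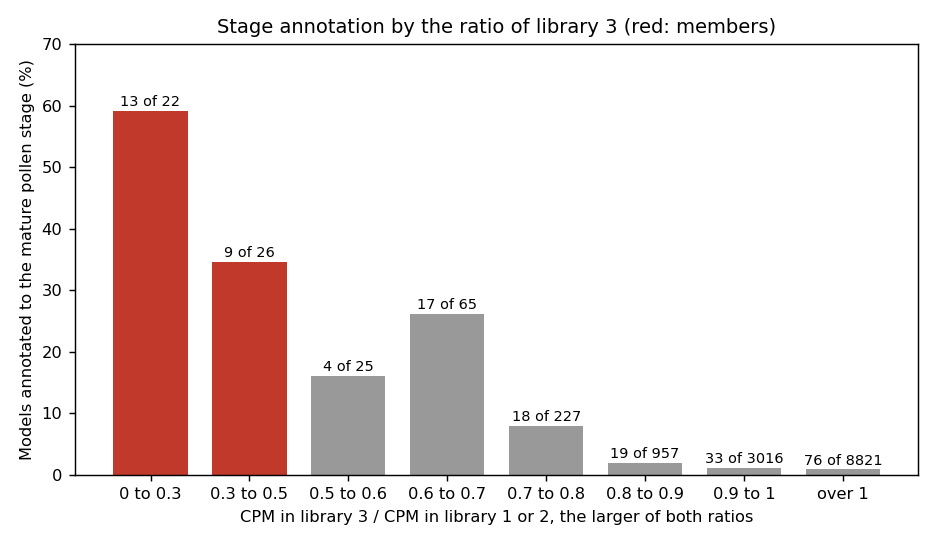
Percent of models annotated to the mature pollen stage (y axis) in bands of the larger of the ratios of library 3 to library 1 and to library 2 (x axis), with the number annotated and the number of models over each bar. The members fill the red bars, at 59.1% and 34.6%, and the models with a ratio over 1 stand at 0.862%.

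The largest role group was 9 enzymes and inhibitors of pectin, the gel-forming polysaccharide of the cell wall. Roles were assigned from the annotated products after the members were known. Summed, the 9 stood at 75.4 CPM in library 3, against 246 CPM in library 1 and 263 CPM in library 2, and 6 of them carry the mature pollen stage. VGDH1 (AT2G47030, chr2:19324134-19326484), a close relative of the pollen tube pectin methylesterase VANGUARD1, stood at 28.1 CPM in library 3, against 75.2 and 97.0 CPM in libraries 1 and 2. Its ratio to library 1, the nearer, was 0.374 (exact 95% interval 0.313 to 0.445), and its notes name the male gametophyte, the flower and the pollen tube.

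Pectin methylesterases take methyl groups off pectin, and several genes of this family were members without a symbol of their own. AT3G05610 stood at 5.06 CPM in library 3, against 28.7 and 23.4 CPM in libraries 1 and 2. AT5G07420 stood at 6.16 CPM in library 3, against 24.3 and 20.9 CPM. AT2G26450 stood at 4.11 CPM in library 3, against 16.4 and 13.3 CPM. All 3 are annotated to the mature pollen stage and lay at 19.4% to 27.6% of the mean of libraries 1 and 2. Inhibitors of the same superfamily, at 35.5% (AT1G10770) and 33.2% (AT2G31425) of that mean, lay close to VGDH1 at 32.7%. AT1G10770, annotated to pollen tube growth, stood at 7.58 CPM in library 3, against 21.4 and 21.3 CPM. AT2G31425 stood at 5.84 CPM in library 3, against 12.9 and 22.3 CPM, and was the member on which libraries 1 and 2 differed most, by -0.78 on the log2 scale of library 1 over library 2.

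The other pectin genes cut the pectin chain. The polygalacturonase AT5G48140 stood at 5.84 CPM in library 3, against 27.1 and 28.3 CPM in libraries 1 and 2, and the polygalacturonase PGA3 (AT3G07830) stood at 7.42 CPM, against 16.8 and 17.6 CPM. The pectate lyase AT5G15110 stood at 5.21 CPM in library 3, against 23.5 and 18.9 CPM. PGA3 was thus among the milder members at 43.2% of the mean of libraries 1 and 2, while AT5G48140 stood at 21.1%. Most models of these families did not meet the rule, but more of them did than among all models, where 48 of 13159 met it (0.365%). Of 42 models of 10 CPM or more with pectinesterase activity in their annotation, 6 met the rule. The median log2 ratio of the 42 was -0.20, and library 3 was the lowest library for 28. Of 25 polygalacturonases 2 met the rule (median -0.03, library 3 lowest for 12), and of 13 pectate lyases 1 (median 0.01, library 3 lowest for 6). Over all 13159 models the median was 0.01, and library 3 was the lowest for 4338.

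Several pectin genes lie beside close relatives that were not members. For relatives of 10 CPM or more, the rule itself puts the larger of the ratios to libraries 1 and 2 over 0.5. For the member it puts that ratio at 0.5 or less. VANGUARD1 (VGD1), next to VGDH1, stood at 222 CPM in library 3, against 323 and 441 CPM in libraries 1 and 2. On either side of AT5G07420, AT5G07410 stood at 198 CPM in library 3, against 263 and 354 CPM, and AT5G07430 at 44.1 CPM, against 71.8 and 94.5 CPM. Each neighbour thus held over 0.5 times the level of library 1 in library 3, and each was higher in library 2 than in library 1, while AT5G07420 was higher in library 1. Beside PGA3, AT3G07820 stood at 89.7 CPM in library 3, against 116 and 164 CPM, a smaller gap than that of PGA3. AT3G07840, the other neighbour of PGA3, was under the mean level of the rule. It stood at 0.632 CPM in library 3, against 4.95 and 4.64 CPM, a wider gap than that of PGA3. Library 3 was not the lowest for AT3G05620, beside AT3G05610, at 1.90 CPM, against 1.76 and 2.93 CPM. AT2G26440, beside AT2G26450, stood at 51.8 CPM in library 3, against 61.5 and 55.9 CPM. PMEI5, beside AT2G31425, was barely detected, at 0.316 CPM in library 3, against 0.479 and 1.43 CPM. Only 2.71% of the 50-base stretches of VGDH1 and 1.15% of those of PGA3 recur in another gene's transcript.

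**Figure D3:**
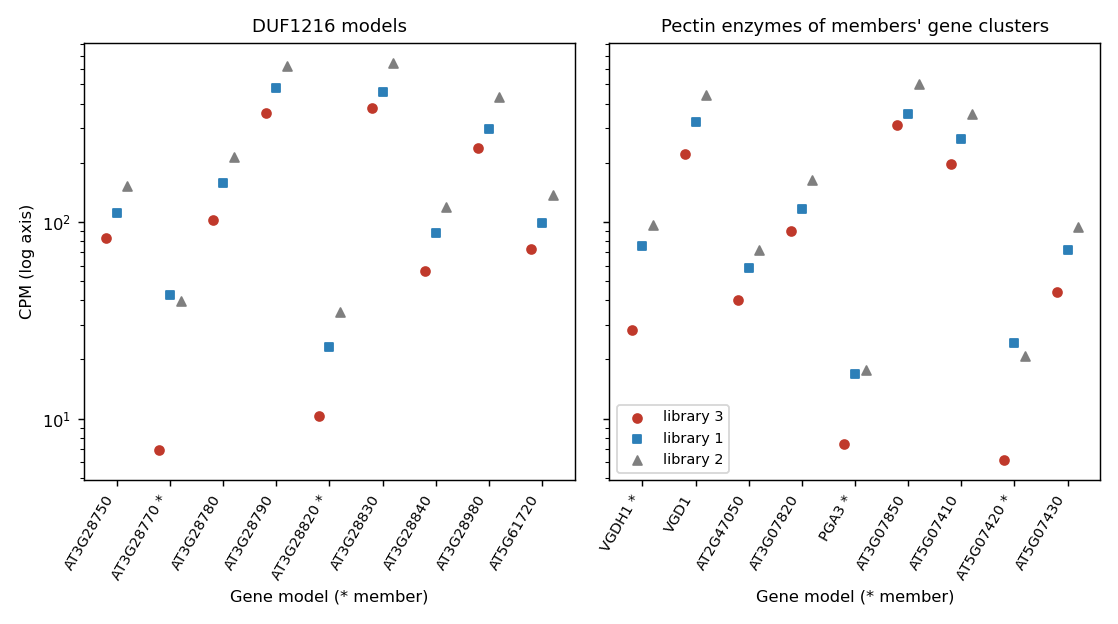
CPM (y axis, log) in library 3, library 1 and library 2 for the 9 DUF1216 models of 10 CPM or more (left) and for pectin enzymes of the gene clusters that hold members (right), with members starred. Library 3 is the lowest for every model shown. The gap is wider for the starred models such as AT3G28770 (6.95 CPM against 42.3 and 39.8) than for VGD1 (222 CPM against 323 and 441). The rule fixes this difference, since stars mark the models that met it.

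Other glycosyl hydrolases, which trim wall polysaccharides other than pectin backbones, gave 4 members with 28.1 CPM in library 3, against 127 CPM in library 1 and 89.1 CPM in library 2. For each of the 4, library 1 was above library 2. GH9A4, of the family of endoglucanases that cut glucan chains, stood at 4.11 CPM in library 3, against 26.3 and 17.5 CPM in libraries 1 and 2. AT3G62710, annotated as a glycosyl hydrolase, stood at 3.32 CPM in library 3, against 23.5 and 16.3 CPM. Both carry the mature pollen stage. The beta-galactosidase BGAL13 (AT2G16730), a gene of the pollen list, stood at 5.37 CPM in library 3, against 28.3 and 21.1 CPM, and BGAL4 stood at 15.3 CPM, against 49.0 and 34.3 CPM. BGAL4 is recorded in 25 plant structures, and its notes do not name the stages. Of 16 beta-galactosidases of 10 CPM or more these 2 were members (12.5%, against 0.365% of all models). The pollen enzyme BGAL11 was not, at 72.8 CPM in library 3, against 119 and 163 CPM.

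Wall and cell surface proteins made up 8 members, with 67.1 CPM in library 3, against 226 CPM in library 1 and 223 CPM in library 2. AGP11 (AT3G01700), an arabinogalactan protein of pollen grains and tubes, stood at 17.9 CPM in library 3, against 39.8 and 54.6 CPM. Per kilobase of transcript it was the highest of all members, at 23.7 CPM per kilobase in library 3, against 52.8 and 72.5 in libraries 1 and 2, ahead of VGDH1 with 12.4, against 33.2 and 42.8. Its partner in pollen development AGP6 was not a member, at 48.7 CPM in library 3, against 74.7 and 100 CPM. FLA3, a fasciclin-like arabinogalactan protein needed for the pollen wall, stood at 2.69 CPM in library 3, against 14.8 and 14.4 CPM.

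Leucine-rich repeat proteins gave 3 members. They are among the 10 models of 10 CPM or more annotated as structural constituents of the wall, a group that also holds EXT3 and PERK8. Of all models, 0.365% met the rule. AT3G19020 stood at 8.06 CPM in library 3, against 39.0 and 36.6 CPM in libraries 1 and 2. AT2G15880 stood at 3.32 CPM in library 3, against 27.0 and 19.1 CPM. AT1G49490 stood at 7.42 CPM in library 3, against 24.3 and 22.4 CPM. The 7 others of the 10 had levels in library 3 at 80.7% or more of the mean of libraries 1 and 2. AT4G33970, with the same product name as the 3 members, was under the mean level of the rule but also low in library 3. It stood at 1.42 CPM in library 3, against 9.90 and 6.71 CPM, and carries the mature pollen stage. The remaining surface members were GLOX1, a glyoxal oxidase-related protein at 9.64 CPM in library 3, against 34.5 and 32.3 CPM, and SVL4, a membrane-anchored protein of the glycerophosphodiesterase-like family at 8.21 CPM, against 23.8 and 20.6 CPM. EXPA11, an expansin that loosens walls during growth, stood at 9.95 CPM in library 3, against 22.5 and 22.6 CPM. It is recorded in 14 plant structures.

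Among 4 other secreted proteins, the germin-like protein GLP8 was the lowest in relative terms, at 2.84 CPM in library 3, against 21.7 and 20.9 CPM in libraries 1 and 2. The subtilase SBT4.13, a secreted protease, stood at 23.7 CPM in library 3, against 53.2 and 67.5 CPM. A second germin-like (cupin) protein, AT5G26700, stood at 5.53 CPM in library 3, against 17.2 and 19.4 CPM, and the peroxidase AT5G47000 stood at 7.90 CPM, against 21.2 and 20.3 CPM. GLP8 and AT5G47000 carry the mature pollen stage, while SBT4.13 and AT5G26700 name anthesis without it.

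The 7 members for membranes, transport and signalling summed to 34.0 CPM in library 3, against 148 CPM in library 1 and 138 CPM in library 2. ACA13 (AT3G22910, chr3:8116292-8119490) is a calcium pump known for exporting calcium from stigma papilla cells when compatible pollen lands. It had 16 counts in library 3, against 243 and 490 in libraries 1 and 2, which is 2.53 CPM, against 38.8 and 35 CPM. The ratio to library 2, the nearer, was 0.0722 (exact 95% interval 0.0410 to 0.119). Its notes name anthesis and not the mature pollen stage. AT4G28000, an ATPase of the P-loop class, stood at 2.21 CPM in library 3, against 16.8 and 14.4 CPM. The malectin-domain receptor kinase AT4G39110 stood at 8.37 CPM in library 3, against 22.5 and 21.4 CPM, and the ENTH/ANTH/VHS protein AT1G03050, of a family that acts in vesicle coats, at 6.0 CPM, against 19.5 and 21.8 CPM. These last 3 carry the mature pollen stage. The protein kinase AT3G61160 stood at 5.69 CPM in library 3, against 22.7 and 18.4 CPM, the lipid-binding START protein AT3G54800 at 3.48 CPM, against 15 and 14.8 CPM, and the amino acid transporter AT3G54830 at 5.69 CPM, against 13.1 and 11.9 CPM.

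The 3 lipid barrier genes were the role group with the lowest relative level, at 9.16 CPM in library 3, against 55.1 CPM in library 1 and 54.1 CPM in library 2, or 16.8% of the mean of libraries 1 and 2. Since the groups were formed after the values were seen, this order is a description only. Single genes of the group ran from 1.75% to 36.8%. GPAT5 (AT3G11430, chr3:3595694-3597952), an acyltransferase of suberin synthesis in seed coats and roots, had 2 counts in library 3, against 110 in library 1 and 260 in library 2. That is 0.316 CPM in library 3, against 17.6 and 18.6 CPM, and 1.75% of the mean of libraries 1 and 2. The ratio to library 1 was 0.0180 (exact 95% interval 0.00215 to 0.0666). ABCG20, a transporter needed for suberin barriers, stood at 2.21 CPM in library 3, against 18.2 and 18.9 CPM. KCS17, which elongates very-long-chain fatty acids, stood at 6.63 CPM in library 3, against 19.3 and 16.7 CPM.

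The notes of ABCG20 and KCS17 name anthesis and not the mature pollen stage, and GPAT5 has no such note. A list of 18 suberin genes was drawn up after these values were seen and is no support for them. Of its 17 models measured, 5 averaged 10 CPM or more and 3 were the members above, and the others, KCS2 and KCS20, stood at 61.8 CPM in library 3, against 60.8 and 61.0 CPM, and at 137 CPM, against 144 and 140 CPM. ABCG6, a partner of ABCG20 in root and seed coat suberin, fell short of the mean level of the rule, at 0.790 CPM in library 3, against 10.7 and 10.8 CPM. The suberin hydroxylase CYP86A1 and the reductase FAR4 had 0 counts in all 3 libraries, and GPAT7, the closest relative of GPAT5, did too.

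The notes of both regulators name anthesis. MYB21, a transcription factor that jasmonate calls on for filament elongation and petal growth at flower opening, stood at 10.9 CPM in library 3, against 24.6 and 26.3 CPM in libraries 1 and 2. Its relatives in the same pathway were too low for the rule: MYB24 stood at 2.69 CPM in library 3, against 5.59 and 3.78 CPM, and MYB57 at 1.11 CPM, against 3.19 and 3.07 CPM. MYB108 stood at 2.37 CPM in library 3, against 8.14 and 8.43 CPM. Not all jasmonate genes of the late stamen and petal maturation list were low. OPR3 stood at 44.2 CPM in library 3, against 42.1 and 49.5 CPM, and COI1 at 39.0 CPM, against 36.6 and 39.8 CPM. Of the 23 models of 10 CPM or more in that list, library 3 was lowest for 13 and highest for 1. Over all 13159 models it was lowest for 4338 and highest for 5146. The F-box gene DAF1 (AT3G62230), named in the annotation for activation by the sperm-lineage regulator DUO1, stood at 9.79 CPM in library 3, against 27.1 and 29.6 CPM. DUO1 itself was near the floor of 3 counts (0.474 CPM in library 3), at 0.316 CPM in library 3, against 0.639 and 1.0 CPM in libraries 1 and 2.

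TPS14, a terpene synthase that makes the floral volatile linalool, stood at 13.0 CPM in library 3, against 33.0 and 30.9 CPM in libraries 1 and 2. The cytochrome P450 CYP76C3, which oxidises linalool, stood at 0.474 CPM in library 3 (3 counts), against 7.18 and 9.64 CPM, under the mean level of the rule. CYP71B31, another linalool oxidase, had 0 counts in all 3 libraries. The floral scent enzymes CYP76C1 and CYP706A3 were not low, at 23.2 CPM in library 3, against 23.1 and 26.3 CPM, and at 198 CPM, against 199 and 196 CPM. Grouped with TPS14 as transfer and terpene enzymes, the adjacent glucosyltransferase genes UGT85A1 and UGT85A3 on chromosome 1 were the only members with no other protein-coding gene between them. UGT85A1 stood at 4.74 CPM in library 3, against 14.7 and 12.4 CPM, and UGT85A3 at 5.53 CPM, against 15.2 and 12.7 CPM. Their relative UGT85A2 stood at 17.5 CPM in library 3, against 22.7 and 18.8 CPM.

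Of 5 members of unknown function, 2 belong to the DUF1216 family, most of which lies in a cluster on chromosome 3. AT3G28770 stood at 6.95 CPM in library 3, against 42.3 and 39.8 CPM in libraries 1 and 2, and AT3G28820 at 10.3 CPM, against 23.0 and 34.9 CPM. Library 3 was the lowest library for all 9 DUF1216 models of 10 CPM or more, whose log2 ratios had a median of -0.70 and a highest value of -0.53, against a median of 0.01 over all models. The 7 that were not members were higher, from 56.1 CPM in library 3, against 87.6 and 119 CPM (AT3G28840), to 381 CPM, against 456 and 646 CPM (AT3G28830). Of the 50-base stretches of AT3G28820, 42.4% recur in other transcripts, chiefly AT3G28810, so its counts are less certain. AT5G39880 stood at 5.37 CPM in library 3, against 23.3 and 20.1 CPM, and its neighbour AT5G39870, another DUF1216 gene, at 1.26 CPM, against 5.59 and 4.57 CPM. AT2G27830 stood at 3.48 CPM in library 3, against 13.9 and 14.1 CPM, and AT3G14560 at 5.37 CPM, against 16.0 and 14 CPM.

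The notes of the last 3 members name no stage of expression. AT4G24380, a hydrolase labelled dihydrofolate reductase, stood at 4.42 CPM in library 3, against 29.7 and 30 CPM in libraries 1 and 2, and is recorded in 24 plant structures. SAG21, a small stress protein of the late embryogenesis abundant class, stood at 3.95 CPM in library 3, against 15 and 14.6 CPM. The heme-binding SOUL protein AT1G78460 stood at 9.64 CPM in library 3, against 22.8 and 19.8 CPM. SAG21 shares 14.7% of its 50-base stretches with AT4G04125, and SVL4 shares 7.59%, chiefly with SVL5.

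**Figure D4:**
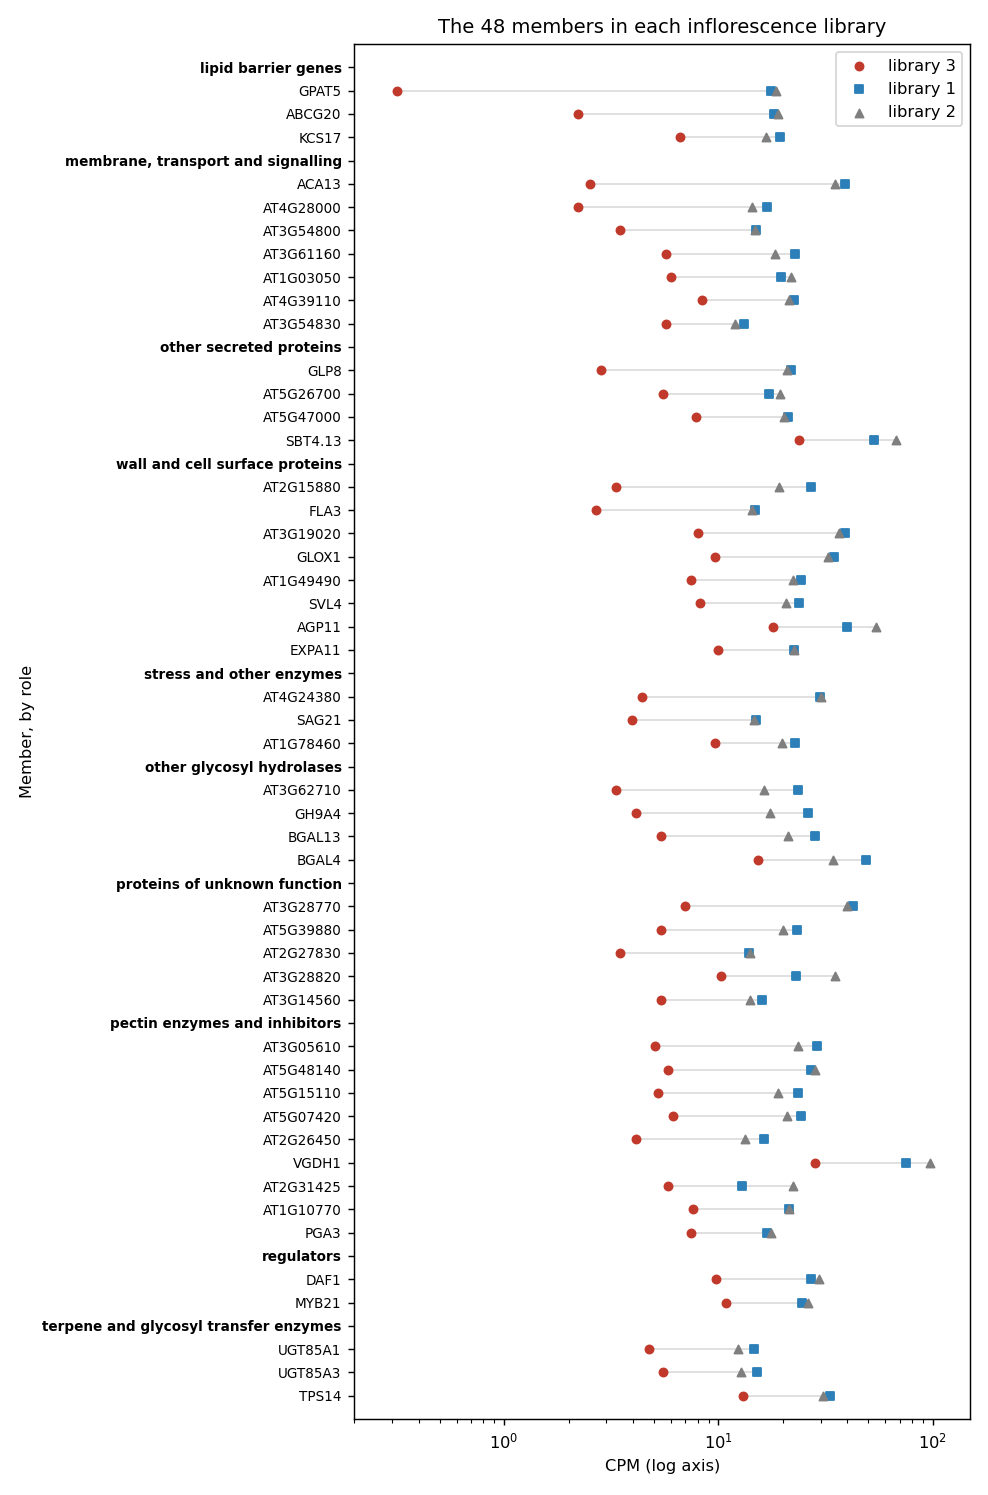
CPM (x axis, log) of each of the 48 members in library 3 (red circles), library 1 (blue squares) and library 2 (grey triangles), grouped by role and sorted within a role by relative level. Library 3 lies left of both others for every member, as the rule requires, from GPAT5 at 0.316 CPM to VGDH1 at 28.1 CPM.

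Lists of genes for floral organs and stages place the members among their like. Of 21 lists with 452 symbols, 4 lists held a member and 17 held none, counting the symbols that the annotation ties to 1 locus. Together the lists held 220 distinct models of 10 CPM or more, of which 5 were members, against 48 of all 13159 models (0.365%). At that share a list this short would seldom hold a member, so a list without one says little. A member known by a symbol that the annotation lacks is not counted in these lists. The list for mature pollen and the pollen tube had 28 models of 10 CPM or more, of which VGDH1, AGP11 and BGAL13 were members, and library 3 was the lowest library for 24 of the 28, against 4338 of all 13159 models. Its median log2 ratio was -0.69, against 0.01 over all models. The 25 that were not members stood at 41.0% to 108% of the mean of libraries 1 and 2 in library 3, with a median of 63.5%. The list's 33 models under 10 CPM were lowest in library 3 in 30 cases, among them the receptor kinases of the pollen tube PRK4 (1.42 CPM in library 3, against 5.27 and 4.43 CPM) and ANX2 (1.90 CPM, against 7.98 and 6.64 CPM). Counts are low there, with 9 in library 3 for PRK4 and 12 for ANX2. The share over all models under 10 CPM is not given here. The sperm cell list had 0 models of 10 CPM or more.

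The other lists with a member were late stamen and petal maturation (MYB21, 1 of 23 models, median log2 ratio -0.16), the nectary (MYB21 again, 1 of 8, median -0.21) and floral scent (TPS14, 1 of 4, median -0.08). Tapetum and pollen coat genes, which act in the anther before pollen is mature, had 0 members among 24 models and a median of 0.00. The pollen coat protein GRP17 stood at 1810 CPM in library 3, against 1637 and 1894 CPM. Genes of the meristem and young bud had 0 members among 15 models and a median of 0.06, and genes of cell division 0 among 18 and a median of 0.12. The rule called 0.365% of all models, so 0 members in lists of 15 to 24 models says little about these genes. For cell division library 3 was the highest library for 14 of 18 models and the lowest for 0, against 5146 and 4338 of all 13159 models. Medians of the other lists with a model of 10 CPM or more lay between -0.23 (defence, 6 models) and 0.05 (ovule, 8 models), with anther dehiscence and secondary wall at -0.16, stress at -0.13, abscission and senescence at -0.12, root and the circadian clock at -0.08, stigma and style at -0.07, meiosis at -0.04, leaf photosynthesis and the petal cuticle at -0.02 and fruit at 0.03. Embryo and seed had 0 models of 10 CPM or more. How far a change in the share of mature flowers in the harvest takes part in the members' levels was not tested.

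**Figure D5:**
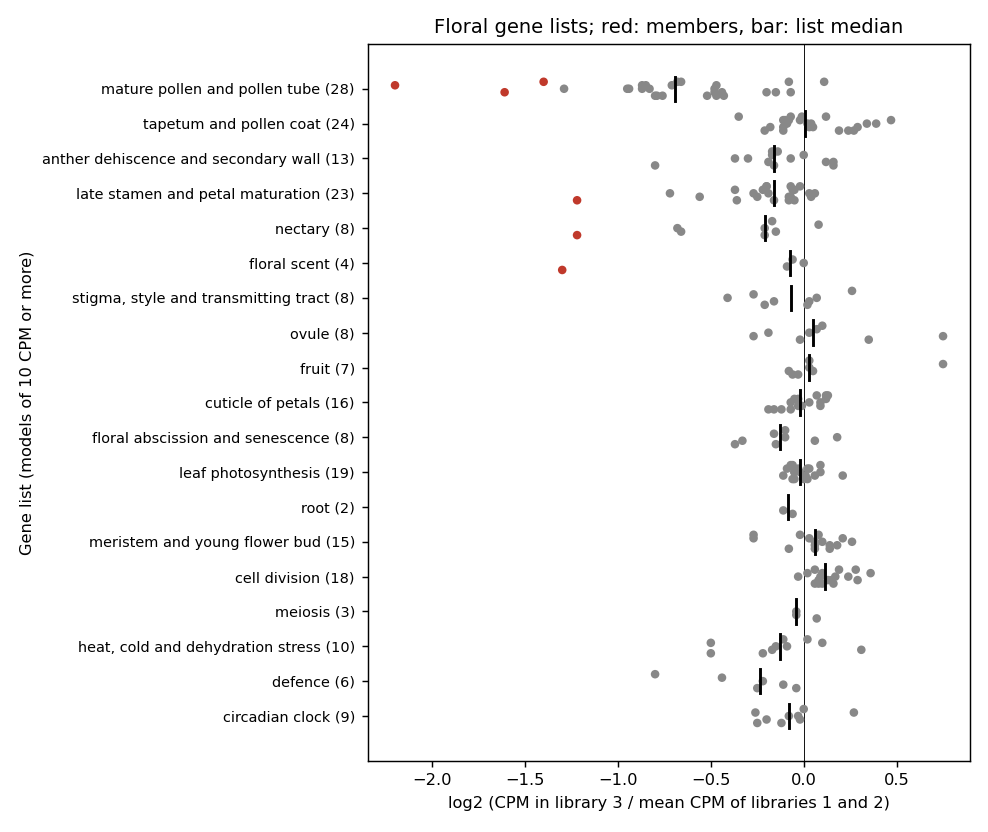
The log2 ratio of library 3 to the mean of libraries 1 and 2 (x axis) for each model of 10 CPM or more in 19 floral gene lists (y axis, number of models in brackets). Members are red and bars are list medians. The pollen list has its median at -0.69, while tapetum stands at 0.00 and cell division at 0.12.

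Levels in libraries 1 and 2 entered the rule, since library 3 had to be low against both, so their order among the members is a description only. Over all 48, library 1 was above library 2 for 32 (66.7%, against 52.8% of all models) and below it for 16. It was above library 2 for 19 of the 22 members annotated to mature pollen, where the log2 ratio of library 1 to library 2 had a median of 0.11. Among the 26 other members it was above library 2 for 13, with a median of 0.01.

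The members lie on all 5 chromosomes, with 18 on chromosome 3 (37.5%, against 20.2% of models of 10 CPM or more). They code for proteins of 97 to 2081 residues with a median of 488, against 422 over all models, and have a median of 2 exons, against 6. Of the 48, 10 overlap a gene on the opposite strand (GLP8, FLA3, AT4G24380, AT3G61160, AT1G03050, AT5G26700, BGAL4, SVL4, TPS14 and MYB21). Whether counting used the strand is not given in the sources used here, and reads of such pairs may not have been told apart.

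The edge of the rule was not sharp. Just inside on the larger ratio were AT1G78460 (0.487), AT3G54830 (0.477), AT2G31425 (0.452), AGP11 (0.449) and BGAL4 (0.447). Just outside were AT1G30795, a glycine-rich protein (0.505), the gluconeogenic enzyme PCK2 (0.508), the pollen receptor kinase PRK2A (0.509), the nitrate transporter NRT1.5 (0.510) and GH9B15, a glycosyl hydrolase (0.520).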

How the data were processed

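The authors deposited 1 table of raw counts per gene model for each library, with no normalization: values are whole and library totals differ. Per the labels, total RNA was extracted with a plant spin-column kit with DNA digestion and made into directional libraries, and per the submitters' processing notes the genome build was TAIR10. The aligner, the counter and the use of strand were not given in the sources used here. All counts of the 3 A. thaliana tables were used, and the A. lyrata tables were not analysed here.

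CPM was computed from raw totals. Of 27176 models, 26690 matched a locus of RefSeq's TAIR10.1 annotation, which gave products, notes, positions, exons and upstream sequences. Chi-square values per model between libraries were 2.27 (1 and 2), 2.69 (1 and 3) and 3.20 (2 and 3), so no library repeats another. Intervals of ratios are exact and conditional on the summed counts. Counts were also scaled by TMM and upper-quartile factors of edgeR 4.0.16 and size factors of DESeq2 1.42.0, in R 4.3.3. Python 3.11.15, numpy 2.4.6, pandas 2.3.3, scipy 1.17.1 and matplotlib 3.10.9 did the rest.

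The members and the gene lists were chosen with earlier results of these data known, and no test was made. The 10 role groups and the suberin list were made after the values were seen. The 452 list symbols gave 414 list entries, and with the suberin list 31 symbols were left out: 3 because the annotation gives them to another gene, the rest because they matched no locus or several. Named are members of lists, the 15 highest by mean CPM, the 15 lowest by relative level, 5 on either side of the edge and examples of families, and the remaining members and genes outside the rule were named after their values were seen.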

Additional observations from a re-analysis of the deposited data

How the results depend on the processing

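The 48 members were the same 48 under TMM, RLE and upper-quartile scaling, and with totals without models above 1% of counts, of which there were 0. Their percentages of the mean of libraries 1 and 2 moved by at most 0.170 percentage points under the 3 scalings. The number of members turned on the rule's limits: 110 models passed with a mean of 5 CPM or more (48 of them members), 14 with 20 CPM or more (14), 2047 with no limit on the mean (48), 36 at a ratio of 0.4 (36) and 73 at a ratio of 0.6 (48). With 1 of libraries 1 and 2 left out, and the mean taken over the pair that was left, 52 to 58 models passed: 58 without library 1, of which 36 were members, and 52 without library 2, of which 39 were. Relative levels moved past their counting interval for 6 members without library 2 and for 0 without library 1. In scalings added after the data were seen, 31 or 32 members had library 1 above library 2, and 0 models were low in library 1 or in library 2. The 5 members found in gene lists were 5 under each scaling. No paired analysis was possible because the members come from 3 libraries of 1 group and no test is made. Depth limits the lowest values: 3 counts are 0.474 CPM in library 3, 0.479 in library 1 and 0.214 in library 2.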

Other observations

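Under the level set by the rule, 62 models with a mean of 5 to under 10 CPM were also at most 0.5 times as high in library 3 as in libraries 1 and 2, which is 2.78% of the 2233 models in that range. Counts are lower there, and counting error is larger. The mature pollen stage was annotated for 28 of the 62 (45.2%), against 43 of the 2171 others in the range (1.98%), and anthesis for 36 (58.1%, against 7.83%). The genes named here were picked after their values were seen. Pollen genes among them were the cell wall invertase CWINV2 (2.05 CPM in library 3, against 14.2 and 13.0 CPM in libraries 1 and 2), the calcium-dependent kinase CPK24 (2.21 CPM, against 10.9 and 10.6 CPM) and the pollen protein BCP1 (2.37 CPM, against 9.90 and 9.85 CPM).

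The terpene synthase TPS10, the other linalool synthase of the flower, stood at 4.11 CPM in library 3, against 11.8 and 13.2 CPM. The sugar exporter SWEET14 stood at 1.26 CPM in library 3, against 8.46 and 9.35 CPM. ADPG1, a polygalacturonase of anther and fruit opening, stood at 2.37 CPM in library 3, against 8.30 and 7.5 CPM. The relative of SVL4, SVL5, which carries the mature pollen stage, stood at 0.948 CPM in library 3, against 7.82 and 6.57 CPM.

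The 2 models that were at least 2 times as high in library 1 as in both others were FTM1, a desaturase (9.32 CPM in library 3, against 31.9 and 13.1 CPM in libraries 1 and 2), and the touch-induced calmodulin-like gene TCH3 (6.32 CPM, against 16.9 and 7.43 CPM).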
